A study of Homo sapiens with 17 samples.

Results

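The genes described here are 40 marker and fate genes of the secretory lineages of the intestinal epithelium and of tuft cells, out of 20037 protein-coding genes of the RefSeq annotation (GRCh38.p14). They were taken from a list of cell class markers and not selected by measured values, although earlier results of these data were known at the time. The list holds 15 genes of goblet cells, 4 of Paneth cells, 16 of enteroendocrine cells, 4 of tuft cells and GFI1, a fate gene of secretory progenitors. The measurement was Flag ChIP-seq of the histone variant H2A.Z in Caco-2/15 cells, a clone of the Caco-2 colon carcinoma line that acquires enterocyte features after confluence. In each cell model CRISPR-Cas9 had placed a Flag tag in the 3′ region of 1 allele of H2AFV, which encodes H2A.Z.2, or of H2AFZ, which encodes H2A.Z.1. Each gave 2 groups, postconfluent cells kept for 7 days after confluence and subconfluent cells, with 2 experiments (Exp1 and Exp2) a group and 1 deposited peak list for each of the 8 precipitations. All 4 groups therefore carry the tag in heterozygous form, and a list reports the tagged copies of 1 isoform only. The sources used here do not give whether a model is 1 clone. The study's 8 other precipitations, made with an antibody to total H2A.Z, and its 1 input were not used here.

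Goblet cells secrete the mucins and trefoil factors of intestinal mucus, Paneth cells secrete antimicrobial proteins, enteroendocrine cells store peptide hormones or serotonin in chromogranin-rich granules, and tuft cells are chemosensory cells that share signalling proteins with taste cells. In mice all of them arise from crypt progenitors under transcription factors such as Spdef, Gfi1, Neurog3 and Pou2f3. H2A.Z is a variant of histone H2A that is commonly found in nucleosomes beside transcription start sites and at enhancers, and its 2 isoforms differ by a few amino acids. A peak list shows where tagged H2A.Z was enriched above the authors' threshold. It holds no expression values, gives no read depth, and says nothing of signal below that threshold. In such pooled chromatin, fewer cells with H2A.Z at a site and less of it per cell cannot be told apart.

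The lists held 30603 to 79425 intervals, a 2.60-fold range, so only the 30603 intervals with the highest −log10 p were kept from each, as many as the shortest list (H2A.Z.2 subconfluent Exp2) held. A gene was counted as occupied in a list where an interval came within 1 kb of its annotated start or end. Its strength was the percentile of the authors' fold enrichment within that list. Between 11947 and 12415 genes were occupied per list. Values for whole lists are named as such.

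In lists of equal length, 25 of the 40 genes had no tagged H2A.Z interval at either end, and in whole lists 17 of the 40 had none. In lists of equal length 6 of the 40 (15.0%) were occupied in all 8 lists, beside 54.5% of all protein-coding genes, and the 25 occupied in none made 62.5%, beside 33.1% of all genes. The 6 were the mucin gene MUC5B, the trefoil factor gene TFF2, the goblet product gene SPINK4, the peptide hormone gene PYY and the repressor genes GFI1 and GFI1B. In between stood CHGB and TPH1 with 6 lists, TFF3 and FCGBP with 5, SYP with 4, AGR2 with 2, and MUC2, TFF1 and LYZ with 1 list each. In whole lists, 7 genes were occupied in all 8 (the 6 and TFF3), beside 57.9% of all genes, and the 17 with none made 42.5%, beside 26.1%, so that 16 genes were occupied in some whole lists. These shares are descriptions, and no test of the list against other genes was made.

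The same counts were made by cell class, first in lists of equal length. Of the 15 goblet genes, 3 were occupied in all 8 lists, 5 in some and 7 in none. Of the 16 enteroendocrine genes, 1 was occupied in all 8, 3 in some and 12 in none. None of the 4 Paneth genes was occupied in all 8 lists, and 3 of them were occupied in none. Among the 4 tuft genes GFI1B was occupied in all 8 lists and the other 3 in none. The 8 transcription factor genes among the 40 divided into GFI1 and GFI1B, occupied in all 8 lists, and SPDEF, NEUROG3, NEUROD1, INSM1, PAX4 and POU2F3, occupied in none. In whole lists fewer genes had none: 6 of 15 goblet, 2 of 4 Paneth, 7 of 16 enteroendocrine and 2 of 4 tuft genes. Of the transcription factor genes, 3 of 8 had none in whole lists (NEUROD1, PAX4 and POU2F3), while SPDEF was occupied in 4, NEUROG3 in 3 and INSM1 in 2.

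Other genes of the same cell classes were counted in the same way. Of 23 other goblet genes, 11 were occupied in all 8 lists, among them the transcription factor genes CREB3L1, FOXA3 and KLF4 and the membrane mucin gene MUC1. Of 26 other enteroendocrine genes, 6 were: PDX1, FEV, MNX1, FOXA2, CPE and SCT. Of 20 other tuft genes, 4 were (SH2D6, PLCG2, IL13RA1 and SPIB), and of 12 other Paneth genes only SOX9 was. As a check of the cell identity, 4 of 10 epithelial genes (CDH1, CDX1, CDX2 and HNF4A) were occupied in all 8 lists and 1 of 10 in none. Of 10 genes of other lineages, 2 (CD14 and COL1A1) were occupied in all 8 and 4 in none. Genes of both kinds were found among the occupied, and occupancy was not used to name a cell type.

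**Figure D1:**
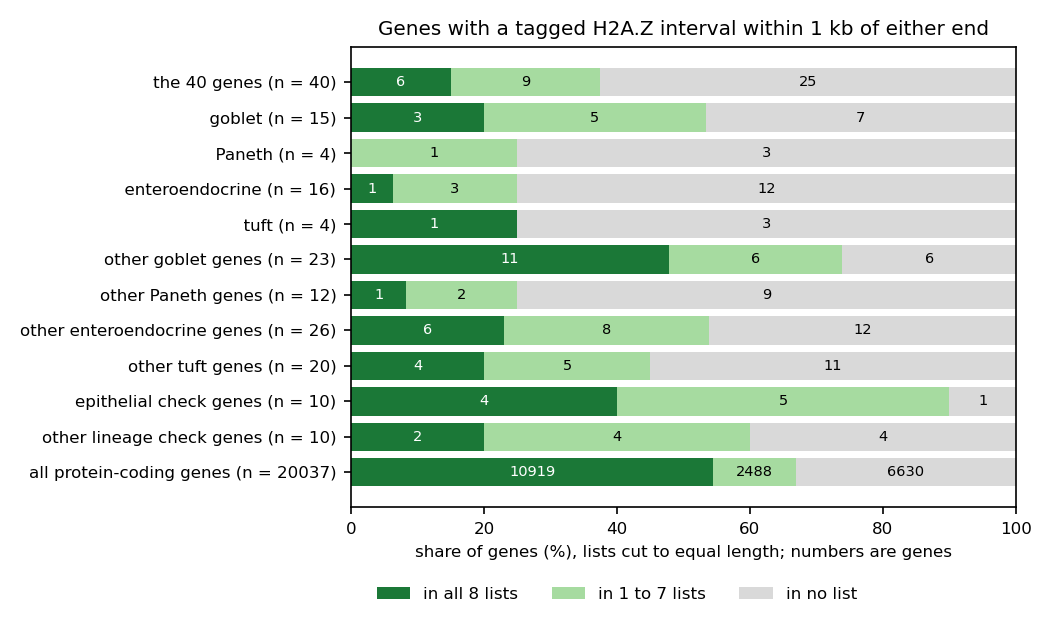
Share of genes (%) with a tagged H2A.Z interval within 1 kb of either gene end in all 8 lists (dark green), in some (light green) and in none (grey), for the 40 genes, their classes, other genes of the classes, check genes and all protein-coding genes, in lists of equal length. Numbers in the bars are genes; the 40 genes divide into 6, 9 and 25, against 10919, 2488 and 6630 of all 20037.

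Sequences before the transcription starts are printed for genes whose intervals lie on or before a start, and for 2 genes of the list with none. Each line is 300 bases of RefSeq sequence (GRCh38.p14), from 250 before to 50 after an annotated start, 5′ to 3′ on the gene's strand. Capitals mark the dinucleotide CG, which the opposite strand holds at the same places. SPINK4 (chr9:33239917-33240216, plus strand) and AGR2 (chr7:16804950-16805249, minus strand) carry intervals over the start, SPINK4 in 7 of 8 lists of equal length and AGR2 in 2. GFI1 is shown at the start that lies inside an interval in 8 of 8 lists (chr1:92486050-92486349, minus strand) and at its outermost start, which lies inside none (chr1:92486876-92487175, minus strand). PYY is shown at its outermost start (chr17:44004396-44004695, minus strand) and SYP at its only start in the table (chrX:49200144-49200443, minus strand). CHGA (chr14:92922900-92923199, plus strand) and NEUROD1 (chr2:181680468-181680767, minus strand) had no interval at either end in any whole list.
SPINK4: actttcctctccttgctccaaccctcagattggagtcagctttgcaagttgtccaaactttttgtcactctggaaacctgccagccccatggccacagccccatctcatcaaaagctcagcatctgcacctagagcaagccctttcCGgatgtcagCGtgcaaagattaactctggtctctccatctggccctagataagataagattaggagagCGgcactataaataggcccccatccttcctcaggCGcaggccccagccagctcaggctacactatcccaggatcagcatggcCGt
AGR2: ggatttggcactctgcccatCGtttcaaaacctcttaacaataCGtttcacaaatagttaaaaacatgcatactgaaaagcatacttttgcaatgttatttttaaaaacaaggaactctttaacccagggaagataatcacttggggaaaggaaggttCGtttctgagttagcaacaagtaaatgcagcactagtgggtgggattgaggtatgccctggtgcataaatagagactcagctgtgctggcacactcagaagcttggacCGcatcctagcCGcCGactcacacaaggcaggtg
GFI1 inner start: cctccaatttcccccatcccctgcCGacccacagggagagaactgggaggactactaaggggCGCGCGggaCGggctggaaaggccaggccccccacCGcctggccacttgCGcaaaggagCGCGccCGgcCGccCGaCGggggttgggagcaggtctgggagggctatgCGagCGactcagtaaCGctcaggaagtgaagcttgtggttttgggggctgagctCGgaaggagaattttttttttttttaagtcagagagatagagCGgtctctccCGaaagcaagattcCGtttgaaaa
GFI1 outermost start: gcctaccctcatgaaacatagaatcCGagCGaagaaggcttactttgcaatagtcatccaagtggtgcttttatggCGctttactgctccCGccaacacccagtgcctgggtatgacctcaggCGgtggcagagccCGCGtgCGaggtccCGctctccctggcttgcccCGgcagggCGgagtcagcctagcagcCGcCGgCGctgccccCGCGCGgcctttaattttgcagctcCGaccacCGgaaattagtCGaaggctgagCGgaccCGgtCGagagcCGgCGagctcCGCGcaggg
PYY outermost start: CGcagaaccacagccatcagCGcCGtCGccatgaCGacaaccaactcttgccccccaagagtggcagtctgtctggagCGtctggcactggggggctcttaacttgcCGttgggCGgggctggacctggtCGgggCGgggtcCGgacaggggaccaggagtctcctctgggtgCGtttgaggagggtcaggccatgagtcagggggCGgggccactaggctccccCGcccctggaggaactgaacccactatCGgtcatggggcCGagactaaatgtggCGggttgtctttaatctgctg
SYP: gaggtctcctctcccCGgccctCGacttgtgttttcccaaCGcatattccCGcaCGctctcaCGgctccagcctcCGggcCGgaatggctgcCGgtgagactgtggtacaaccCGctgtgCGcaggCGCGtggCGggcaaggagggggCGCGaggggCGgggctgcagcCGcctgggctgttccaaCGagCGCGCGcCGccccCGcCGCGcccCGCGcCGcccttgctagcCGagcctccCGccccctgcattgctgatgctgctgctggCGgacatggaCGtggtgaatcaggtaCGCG
CHGA: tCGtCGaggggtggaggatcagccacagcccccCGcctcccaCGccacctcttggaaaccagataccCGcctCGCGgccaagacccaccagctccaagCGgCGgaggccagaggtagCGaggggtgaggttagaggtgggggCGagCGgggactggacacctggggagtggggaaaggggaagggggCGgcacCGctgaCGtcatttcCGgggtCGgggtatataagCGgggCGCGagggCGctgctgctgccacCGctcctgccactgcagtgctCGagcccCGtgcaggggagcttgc
NEUROD1: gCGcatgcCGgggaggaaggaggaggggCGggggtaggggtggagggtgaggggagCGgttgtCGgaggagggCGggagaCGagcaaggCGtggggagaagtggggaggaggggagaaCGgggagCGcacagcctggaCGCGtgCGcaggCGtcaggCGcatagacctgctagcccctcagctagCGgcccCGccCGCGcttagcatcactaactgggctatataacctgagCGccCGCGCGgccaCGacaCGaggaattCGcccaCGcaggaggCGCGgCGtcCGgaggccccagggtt

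Over the 22199 windows of this kind the median was 21 CG dinucleotides, with quartiles of 7 and 31, and 98.0% of windows held at least 1. Of the windows shown, SPINK4 had 5 and AGR2 had 6, the inner start of GFI1 had 20 and its outermost start 27, and PYY had 17, SYP 35, CHGA 24 and NEUROD1 31. Low and high counts were found both at genes with intervals and at genes without. Among genes occupied in lists of equal length, FCGBP had 4 CG, MUC2 had 9, TPH1 had 21, and the outermost start of GFI1B had 6. Among genes with none at an end in these lists, REG3A and GIP had 0, PAX4 had 0 and 2 at its 2 starts, GCG, RETNLB and NTS had 2 each, AVIL had 3, REG4 had 5 and CLCA1 had 6. SPDEF had 8, MLN had 9, SST had 11, CCK had 5 and 13 at its 2 starts, and NEUROG3 had 31. The window of SPINK4 contained TATAAA, searched on both strands, as did 9.47% of all windows. Among genes with none at an end in lists of equal length, so did REG4, REG3A, GCG, SST, GIP and the inner start of CCK. Only 25 of the 40 genes (62.5%) have a window in the table, so a comparison of base composition over the whole list is void and none is given.

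Among the mucin genes, MUC5B was occupied in all 8 lists and its neighbours in few or none. MUC6, MUC2, MUC5AC and MUC5B encode gel-forming mucins and lie side by side over 249 kb of chromosome 11 (chr11:1012823-1262172). In lists of equal length the cluster held 3 to 7 intervals per list, and the merged intervals formed 13 regions, of which 1 was present in all 8. That region lay over the higher end of MUC5B (chr11:1261944-1263500), with summits 336 to 779 bp beyond the annotated end. MUC5B is transcribed towards that side, so the interval lay at the 3′ end of the gene, and no interval was found at its lower end in any list of equal length.

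MUC5B stood at percentiles of 77.7 and 79.7 in postconfluent and 60.0 and 72.3 in subconfluent cells for H2A.Z.2 (Exp1 and Exp2). For H2A.Z.1 it stood at 80.1 and 86.6 in postconfluent and 68.9 and 83.7 in subconfluent cells. The postconfluent values were the higher of each experiment's pair for both isoforms. For H2A.Z.2 both postconfluent lists were above both subconfluent lists, with an adjusted p of 0.955 by limma. For H2A.Z.1 the states overlapped. The share of all genes with these orders was not counted. MUC2, the main mucin of intestinal mucus, had a single interval in lists of equal length, at percentile 12.4 of H2A.Z.1 postconfluent Exp1, just before its start. In whole lists MUC2 was occupied in 3 of 4 postconfluent lists and 0 of 4 subconfluent lists, with fold enrichments of 4.57 for H2A.Z.2 and of 4.83 and 3.48 for H2A.Z.1. All 3 intervals lay with their summits 257 to 512 bp before the start. MUC5AC and MUC6 had none at an end, with the nearest interval of whole lists 1.99 to 5.92 kb from an end of MUC5AC and 5.09 to 59.7 kb from an end of MUC6. Inside MUC5AC a region at chr11:1193032-1194250 was present in all 8 whole lists, with fold enrichments of 3.26 to 6.22.

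The trefoil factor genes TFF3, TFF2 and TFF1 lie within 54.9 kb of chromosome 21 (chr21:42311667-42366535) and encode small secreted peptides that stabilise mucus. All 3 carried their intervals at the higher end, which is the 5′ side of these genes, and they differed in how often. TFF2 was occupied in all 8 lists, with summits from 20 bp inside to 239 bp outside the gene. Its percentiles were 63.6 and 93.4 in postconfluent and 84.4 and 68.1 in subconfluent cells for H2A.Z.2, and 84.8 and 64.8 in postconfluent and 86.8 and 60.9 in subconfluent cells for H2A.Z.1. The states overlapped over nearly their whole range, and the experiment with the higher value was not the same in every group. TFF3 stood at 26.4 and 49.2 in H2A.Z.2 postconfluent cells, was absent in Exp1 and at 11.2 in Exp2 of H2A.Z.2 subconfluent cells, at 35.0 in Exp1 only of H2A.Z.1 postconfluent cells and at 41.1 in Exp2 only of H2A.Z.1 subconfluent cells. In whole lists TFF3 was occupied in 8 of 8. TFF1 was occupied at percentile 33.4 of H2A.Z.1 postconfluent Exp1 and otherwise only in whole lists, 5 of 8 in all, 3 postconfluent and 2 subconfluent.

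**Figure D2:**
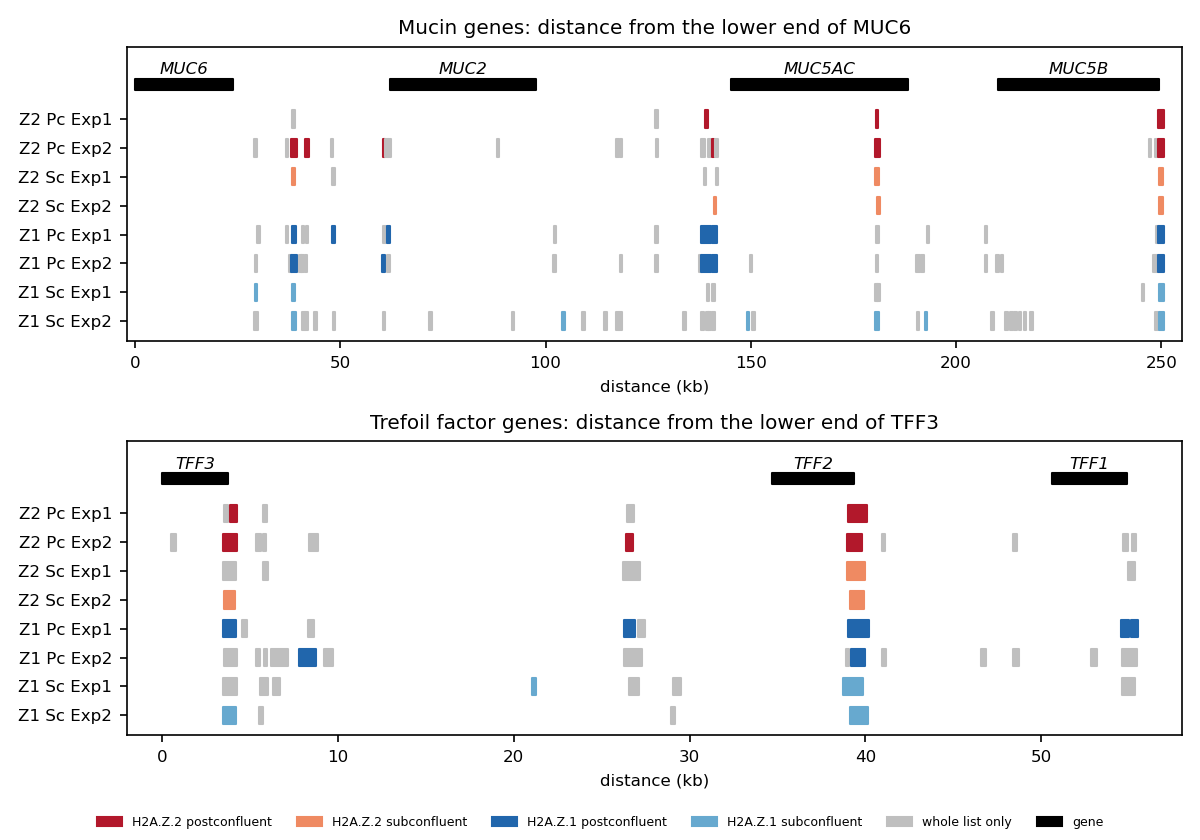
Intervals of each list (rows: isoform Z2 or Z1, postconfluent Pc or subconfluent Sc, experiment) over the mucin genes and the trefoil factor genes, against distance in kb; coloured bars are intervals of the lists of equal length, grey bars those of whole lists only, black bars the genes. Bars at the higher ends of MUC5B and TFF2 stand in all 8 rows, whereas the stretches over MUC6 and the body of MUC2 hold none or few.

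SPINK4, a goblet cell protein of the Kazal inhibitor family, was occupied at its start in all 8 lists, at low rank. Summits lay from 15 bp before to 175 bp after the start (chr9:33239536-33240511 over all lists). Percentiles were 25.9 and 39.6 in postconfluent and 35.3 and 5.99 in subconfluent cells for H2A.Z.2. They were 47.4 and 58.7 in postconfluent and 20.7 and 11.8 in subconfluent cells for H2A.Z.1. For H2A.Z.1 both postconfluent lists were above both subconfluent lists, with an adjusted p of 0.678 by limma. The share of all genes with that order was not counted. For H2A.Z.2 the Exp1 pair ran the other way, so that the states overlapped over all 8 lists.

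FCGBP, an Fc-binding protein of mucus, carried an interval whose summit lay 978 to 1643 bp before its start in 5 lists. It was absent in Exp1 and at percentile 51.0 in Exp2 of H2A.Z.2 postconfluent cells, at 53.9 and 19.1 in H2A.Z.2 subconfluent cells, at 27.4 in Exp1 only of H2A.Z.1 postconfluent cells and at 40.1 in Exp2 only of H2A.Z.1 subconfluent cells. AGR2, a disulfide isomerase of the endoplasmic reticulum that goblet cells of mice need to make Muc2, was occupied in subconfluent lists only. It stood at percentile 13.1 of H2A.Z.2 subconfluent Exp1 and at percentile 12.1 of H2A.Z.1 subconfluent Exp1. In whole lists AGR2 was occupied in 0 of 4 postconfluent and 3 of 4 subconfluent lists, each time by an interval of 234 to 280 bp over the start, with fold enrichments of 4.31 to 4.96. The whole-list counts of MUC2 and AGR2 come from lists of 30603 to 79425 intervals, the shortest subconfluent and the longest postconfluent. The share of all genes with 3 of 4 lists against 0 of 4 was not counted, and neither pattern was tested.

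SPDEF, a transcription factor of goblet and Paneth cell maturation in mice, appeared in whole lists alone. It was occupied at its start in 3 of 4 postconfluent lists and 1 of 4 subconfluent lists, with fold enrichments of 3.10 to 4.74. The goblet genes CLCA1, ZG16, REG4 and RETNLB had no interval at an end in any whole list. The nearest interval lay 1.69 to 72.6 kb from an end of CLCA1, which encodes a metalloprotease of mucus, 1.25 to 7.10 kb from ZG16 and 1.11 to 59.6 kb from REG4, depending on the list. REG4, a secreted lectin gene, held intervals inside the gene in 7 of 8 whole lists. For RETNLB, a resistin-like gene of goblet cells, the nearest interval lay 165 kb away at the closest.

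Of the Paneth genes, LYZ, which encodes lysozyme, was occupied at percentile 19.6 of H2A.Z.2 postconfluent Exp1. In whole lists it gained H2A.Z.1 postconfluent Exp2, where the interval lay at the opposite end of the gene. REG3A, an antimicrobial lectin gene, was occupied in 1 whole list, H2A.Z.1 subconfluent Exp2, with a fold enrichment of 3.90 near its 3′ end. The alpha-defensin genes DEFA5 and DEFA6 were occupied in none, with the nearest intervals 35.3 to 151 kb from DEFA5 and 1.79 to 20.2 kb from DEFA6.

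Among the enteroendocrine genes, the hormone gene PYY was the only one occupied in all 8 lists. PYY encodes peptide YY, which is released by hormone cells of the ileum and colon. The interval that counted in all 8 lists was broad, up to 2549 bp, and lay outside the gene, with its summit 643 to 2268 bp before the outermost start (chr17:44004821-44007478 over all lists). The same interval lay within 1 kb of an end of NAGS, which encodes N-acetylglutamate synthase, in all 8 lists. It cannot be assigned to PYY rather than to NAGS. PYY stood at percentiles of 71.8 and 85.7 in postconfluent and 58.2 and 65.4 in subconfluent cells for H2A.Z.2, and at 57.4 and 87.8 in postconfluent and 81.7 and 78.3 in subconfluent cells for H2A.Z.1. Both postconfluent values were above both subconfluent values for H2A.Z.2, with an adjusted p of 0.927 by limma, and the states overlapped for H2A.Z.1. The share of all genes with the order seen for H2A.Z.2 was not counted. A separate, short interval at the outermost start itself was present in both H2A.Z.2 postconfluent lists of equal length (239 and 393 bp wide) and in no other, a feature singled out after its values were seen. In whole lists it was also found in Exp2 of H2A.Z.1 postconfluent and of H2A.Z.1 subconfluent cells, so it was not restricted to that group. No interval lay within 1 kb of the inner start of PYY (chromosome 17, base 43953940) in any list. Inside the gene, lists of equal length held 3 regions. The nearest to the outermost start, 2.43 to 3.37 kb downstream of it, was present in both H2A.Z.1 postconfluent lists and in no other. The second, 9.11 to 10.1 kb downstream, was present in 6 lists and absent from both H2A.Z.2 postconfluent lists. The third, 19.7 to 21.2 kb downstream, was present in 6 lists. In whole lists the last 2 were present in all 8, at chr17:43994313-43995336 with fold enrichments of 2.60 to 7.09 and at chr17:43983292-43984770 with 2.78 to 6.50. The first was not present in all 8 whole lists. These patterns were singled out at 1 gene after its values were seen, and the share of such regions over all genes was not counted.

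The granule and vesicle genes were occupied in part. CHGB, which encodes chromogranin B, carried an interval at its lower end, the 5′ side of the gene, in 6 lists. It was absent in Exp1 and at percentile 3.25 in Exp2 of H2A.Z.2 postconfluent cells, and at 43.7 in Exp1 only of H2A.Z.2 subconfluent cells. For H2A.Z.1 it stood at 32.7 and 60.4 in postconfluent and 19.4 and 11.4 in subconfluent cells, with both postconfluent values above both subconfluent ones. The share of all genes with that order was not counted. SYP, which encodes the vesicle protein synaptophysin, was occupied 221 to 296 bp before its start in 4 lists. It stood at 64.1 and 70.7 in postconfluent and in neither of the subconfluent lists of H2A.Z.2, and at 48.5 in Exp1 only of postconfluent and 28.2 in Exp2 only of subconfluent cells for H2A.Z.1. In whole lists H2A.Z.2 subconfluent Exp1 also carried the interval, so the separation of the H2A.Z.2 lists was lost. It was lost as well in lists of 15301 intervals each, where SYP was occupied in 1 list. The separation thus depended on the length of the lists. CHGA and SCG2, the genes of chromogranin A and secretogranin II, had no interval at an end in any whole list. The nearest lay 35.9 to 128 kb from CHGA and 10.6 to 10.8 kb from SCG2.

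TPH1, which encodes the first enzyme of serotonin synthesis, was occupied at its start in 6 lists, with summits 48 to 132 bp before it. It stood at 13.0 in Exp1 only of H2A.Z.2 postconfluent cells and 38.0 in Exp1 only of H2A.Z.2 subconfluent cells. For H2A.Z.1 it stood at 17.3 and 36.7 in postconfluent and 23.1 and 31.0 in subconfluent cells, with the subconfluent values inside the postconfluent range. Of the remaining hormone genes, GCG, SST and NTS (glucagon, somatostatin and neurotensin) had no interval at an end in any whole list. Their nearest intervals lay 17.8 to 51.4, 25.1 to 69.3 and 8.08 to 29.9 kb away. CCK, the cholecystokinin gene, had 1, at its 3′ end in H2A.Z.1 subconfluent Exp2, with a fold enrichment of 4.62. In the same whole list another interval lay within 1 kb of its inner start, at percentile 50.2, beside 39.1 at the 3′ end. MLN, the motilin gene, was occupied in 3 whole lists with fold enrichments of 4.06 to 4.96. In all 3 lists (H2A.Z.1 postconfluent Exp1 and Exp2 and H2A.Z.2 subconfluent Exp1) an interval lay within 1 kb of the start. In H2A.Z.1 postconfluent Exp2 the strongest interval, at whole-list percentile 47.6, lay at the other end, beside 46.8 near the start.

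GIP, the gene of glucose-dependent insulinotropic polypeptide, had no interval at an end in lists of equal length and held 1 inside the gene in all 8, at chr17:48960476-48963016. Its percentiles were 62.0 and 16.7 in postconfluent and 57.9 and 45.5 in subconfluent cells for H2A.Z.2, and 46.4 and 60.8 in postconfluent and 29.5 and 58.4 in subconfluent cells for H2A.Z.1, with overlapping states. In 3 whole lists GIP also had an interval at an end, with fold enrichments of 3.02 to 3.41. Of the 25 genes with no interval at an end, GIP alone held a region in all 8 lists inside the gene, beside 12.0% of the 6630 such genes overall. In whole lists this applied to MUC5AC and POU2F3 of 17 genes, beside 12.2% of 5224. Exons and introns are not used here.

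The enteroendocrine transcription factor genes had few intervals, and those were weak. NEUROG3, which specifies the enteroendocrine lineage in mice, was occupied in 3 whole lists with fold enrichments of 3.06 to 4.14, at percentiles from 3.79 to 25.8. INSM1 was occupied in 2 whole lists, with fold enrichments of 4.38 and 4.71. PAX4 and NEUROD1 had none at an end, and their nearest intervals lay 1.62 to 21.0 and 7.94 to 211 kb away. All lists with an interval at NEUROG3, INSM1, CCK or REG3A were whole lists of Exp2. Apart from H2A.Z.2 postconfluent Exp2 at NEUROG3, they were the 2 longest, H2A.Z.1 postconfluent (79425 intervals) and H2A.Z.1 subconfluent (66522 intervals). Whether the experiment or the length of the lists plays a part in this was not tested.

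**Figure D3:**
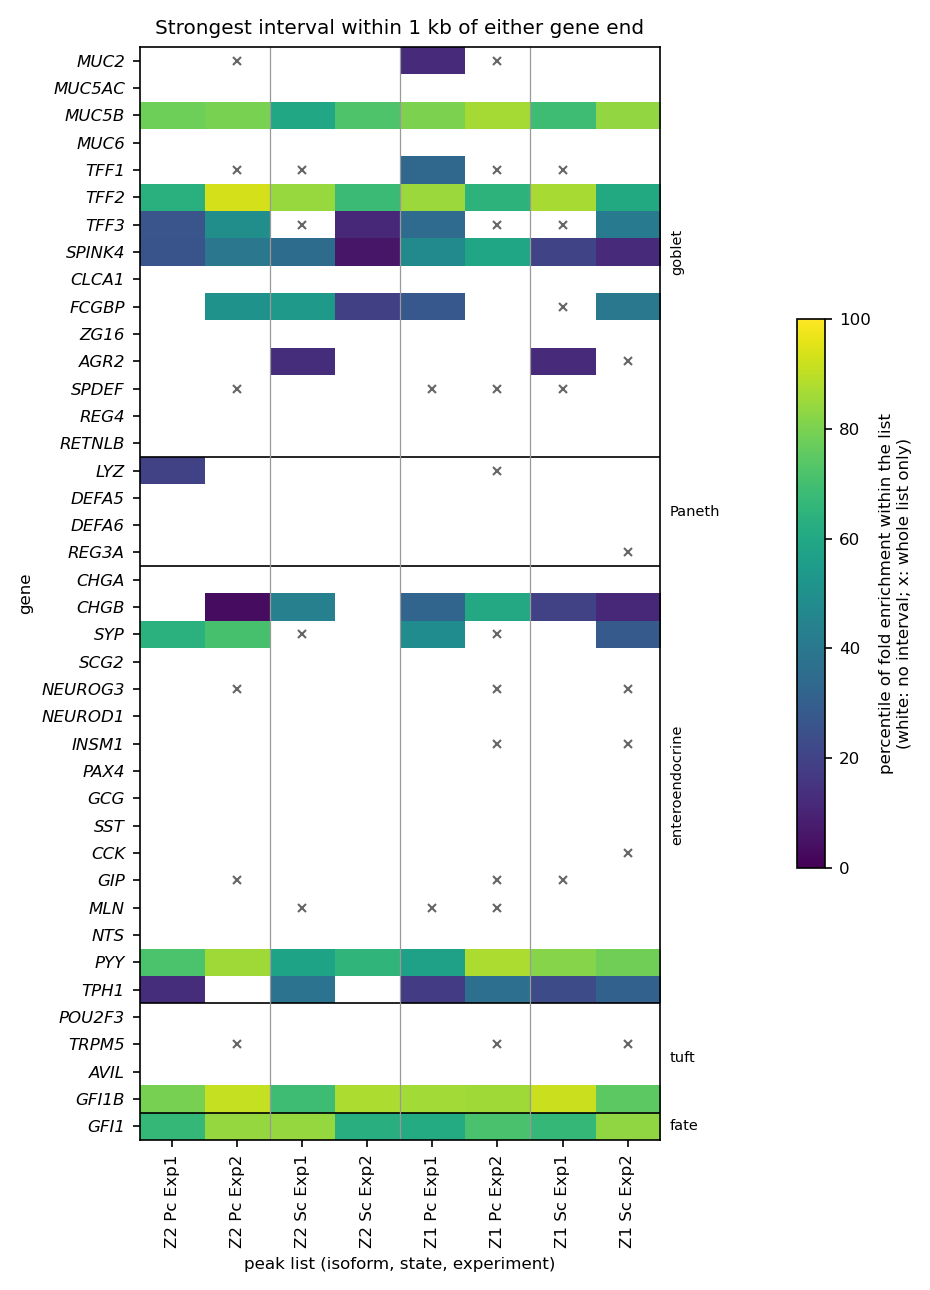
Percentile of fold enrichment within the list (colour) of the strongest interval within 1 kb of either end of each of the 40 genes (rows, by class) in the 8 lists (columns: isoform Z2 or Z1, postconfluent Pc or subconfluent Sc, experiment), in lists of equal length; crosses mark intervals of whole lists only and white means none. The 6 genes coloured in all 8 columns are MUC5B, TFF2, SPINK4, PYY, GFI1B and GFI1.

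GFI1 and GFI1B, paralogous zinc finger repressors, were the only transcription factor genes of the list that were occupied in all 8 lists. GFI1 acts in mice in secretory progenitors that give goblet and Paneth cells, and GFI1B is expressed in tuft cells. At GFI1 the intervals lay downstream of the outermost start, reached up to 3613 bp in width and covered both inner starts (chromosome 1, bases 92486099 and 92483814) in 8 of 8 lists, while the outermost start (base 92486925) lay inside no interval in any list. By width, intervals of at least 2 kb were found at 2.11% to 12.0% of the genes occupied in all 8 lists, depending on the list. GFI1 stood at percentiles of 66.5 and 84.1 in postconfluent and 84.2 and 62.5 in subconfluent cells for H2A.Z.2, and at 61.6 and 71.2 in postconfluent and 66.7 and 83.3 in subconfluent cells for H2A.Z.1. The states overlapped for both isoforms. In 3 lists, both of H2A.Z.2 postconfluent cells and Exp2 of H2A.Z.2 subconfluent cells, the stretch was divided into 2 intervals. There only the piece within 1 kb of the outermost start counted. At the inner start (base 92486099) the percentile was 72.3 in place of 66.5 for H2A.Z.2 postconfluent Exp1. For H2A.Z.2 subconfluent Exp2 it was 83.3 in place of 62.5.

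GFI1B carried its strongest interval within 1 kb of an end at its outermost start in all 8 lists (chr9:132943805-132946036 over all lists). In all 8 that interval also lay within 1 kb of an end of TSC1, which encodes hamartin. In lists of equal length, H2A.Z.1 postconfluent Exp1 and H2A.Z.2 postconfluent Exp2 held another interval within 1 kb of that start. Percentiles at that start were 79.5 and 91.4 in postconfluent and 69.0 and 87.9 in subconfluent cells for H2A.Z.2, and 86.0 and 85.6 in postconfluent and 91.9 and 74.8 in subconfluent cells for H2A.Z.1. Inside the gene another 3 regions were present in all 8 lists, at chr9:132972238-132973662, chr9:132976805-132978275 and chr9:132982039-132983261. The second of them lay before the inner start (base 132978694), which was inside an interval in none of the lists of equal length. Its percentiles were 54.1 and 67.2 in postconfluent and 68.1 and 31.4 in subconfluent cells for H2A.Z.2, and 88.2 and 74.9 in postconfluent and 68.1 and 68.7 in subconfluent cells for H2A.Z.1. At this inner region both postconfluent lists of H2A.Z.1 were above both subconfluent lists, and for H2A.Z.2 the states overlapped. That order was not tested, and the share of such regions over all genes was not counted. Of the 6 genes occupied in all 8 lists, PYY and GFI1B shared their strongest interval with an end of another gene in all 8, as did 29.1% of the 10919 genes occupied in all 8.

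Of the other tuft genes, TRPM5, the cation channel of taste-type signalling, held a region inside the gene in 7 lists of equal length and in 8 of 8 whole lists (chr11:2419673-2421986). Its gene end was occupied in 3 whole lists of Exp2, with fold enrichments of 3.82 to 4.50, each time by an interval that also lay within 1 kb of an end of KCNQ1. POU2F3, the factor that specifies tuft cells in mice, held a region inside the gene in 7 lists of equal length and in 8 of 8 whole lists (chr11:120299483-120300176), with fold enrichments of 3.39 to 7.49. AVIL, which encodes the actin-binding protein advillin, had its nearest interval 13.9 to 14.1 kb away.

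**Figure D4:**
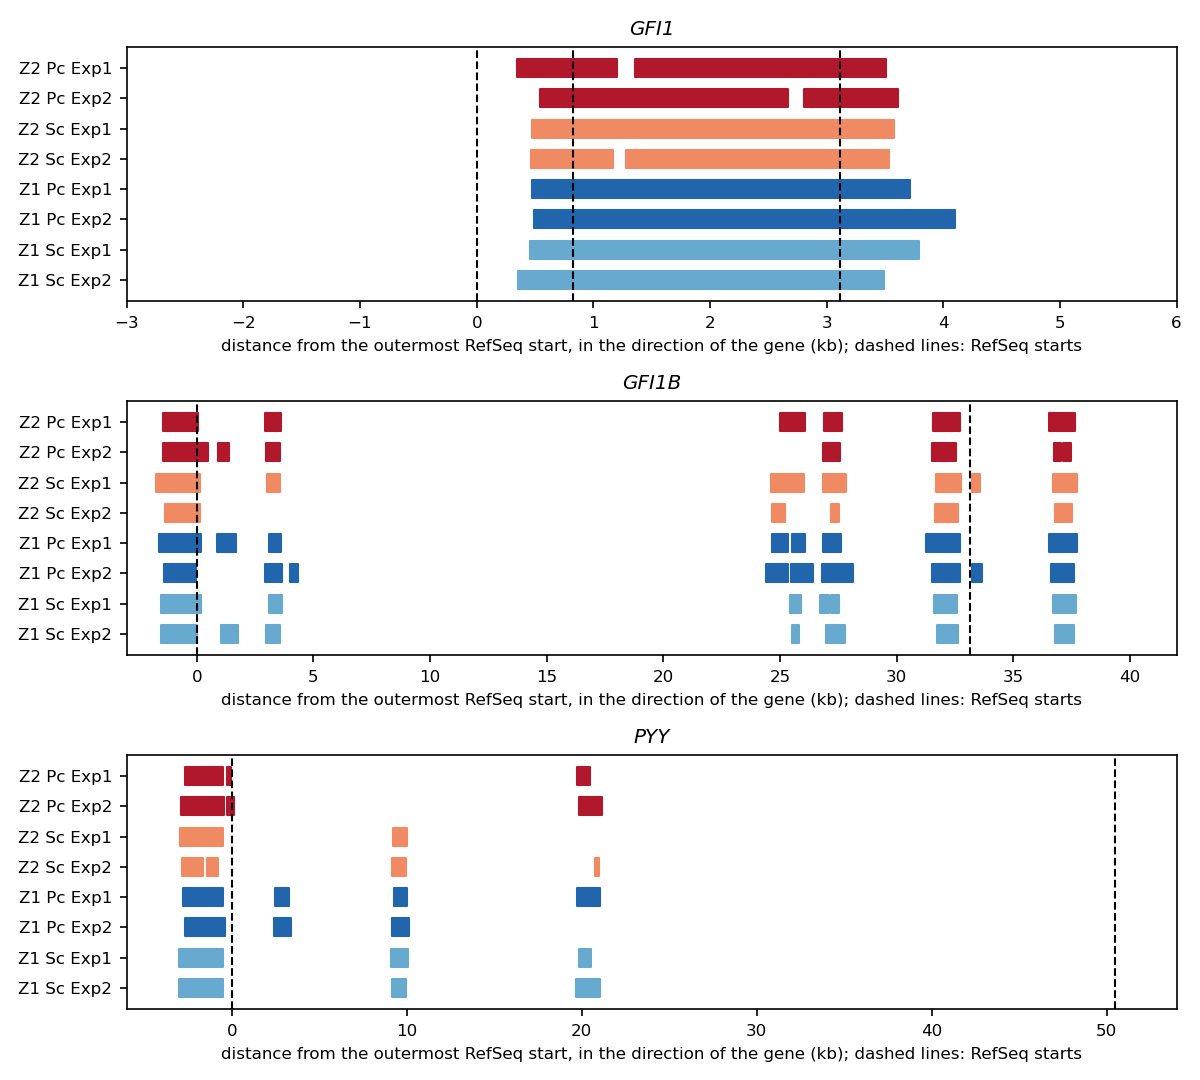
Intervals of the lists of equal length (rows: isoform Z2 or Z1, postconfluent Pc or subconfluent Sc, experiment) along GFI1, GFI1B and PYY, against distance in kb from the outermost RefSeq start in the direction of the gene; dashed lines mark RefSeq starts. At GFI1 the intervals begin after the outermost start and cover both inner starts in all 8 rows; at PYY all 8 rows have an interval before the outermost start and at least 1 inside the gene, 2.43 to 21.2 kb after that start, and none lies at the inner start.

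The design asks whether tagged H2A.Z at these genes differed between postconfluent and subconfluent cells and between H2A.Z.2 and H2A.Z.1. No gene of the 40 was occupied in all 4 lists of one side and in none of the other. Among all genes, 0.105% were occupied in postconfluent lists only, 0.0848% in subconfluent lists only, 0.00499% in H2A.Z.2 lists only and 0.0449% in H2A.Z.1 lists only. With 2 lists against 2, SYP was the single such gene of the 40, occupied in both postconfluent and neither subconfluent list of H2A.Z.2, as were 0.664% of all genes. The opposite pattern within H2A.Z.2 was met by 0.429% of all genes. Within H2A.Z.1, postconfluent lists only was met by 0.509% and subconfluent lists only by 0.594%. Between isoforms in postconfluent cells, H2A.Z.2 only was met by 0.14% and H2A.Z.1 only by 0.499%. In subconfluent cells these shares were 0.17% and 0.649%. In whole lists within H2A.Z.1, MUC2 and MLN were occupied in both postconfluent lists only, beside 0.888% of all genes, and AGR2 in both subconfluent lists only, beside 0.265%, while SYP no longer met its pattern. Both H2A.Z.1 postconfluent lists had an interval within 1 kb of the start of MLN, and in Exp2 its strongest interval lay at the other end. Between isoforms, whole lists of postconfluent cells held MLN for H2A.Z.1 only, beside 1.41% of all genes. Each of these counts rests on 1 or 2 genes.

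The strength of the intervals was tested for genes occupied in all 8 lists, which keeps 6 of the 40 genes and 10919 of all. Within each list the fold enrichments of these genes were ranked and the ranks converted to normal scores, whose unit is the standard deviation. The scores were fitted with limma, with p-values adjusted over the 10919 genes by the Benjamini-Hochberg method. A score gives the place of a gene in the order of its list and is no amount of bound H2A.Z. Postconfluent minus subconfluent over both isoforms called 6 genes (0.055%) at an adjusted p of 0.05, 5 higher and 1 lower, with 997 genes (9.13%) at an unadjusted p under 0.05, and none of the 6 genes of the list was among the called. With the experiment as a replicate block shared by the isoforms 14 genes were called, and with a replicate block within each isoform 20, in each case with no gene of the 40. Interval names in the lists carry 1 run name for both isoforms in Exp2 and a different one for each isoform in Exp1, so a block shared by the isoforms joins 2 runs in Exp1. Leaving out 1 list in turn gave 0 to 12 calls, with 12 without H2A.Z.1 postconfluent Exp1, 2 without H2A.Z.2 subconfluent Exp1, and 0 without each of H2A.Z.1 postconfluent Exp2, H2A.Z.2 postconfluent Exp1 and H2A.Z.2 subconfluent Exp2.

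The other contrasts called no gene of 10919 (0.0%) by limma. At an unadjusted p under 0.05 they had 409 genes for H2A.Z.2 minus H2A.Z.1 over both states, 637 for state within H2A.Z.2, 755 for state within H2A.Z.1, 385 for isoform in postconfluent cells, 405 for isoform in subconfluent cells and 347 for the difference in state effect between isoforms. With the shared replicate block, state within H2A.Z.2 called 1 gene and state within H2A.Z.1 called 2, and with a block within each isoform they called 0 and 3.

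SPINK4 had the largest state difference of the 6 genes. Its scores averaged −1.36 ± 0.41 in postconfluent and −2.21 ± 0.53 in subconfluent lists (SD, n = 4 each). The difference was 0.86 ± 0.37 (SE), with an unadjusted p of 0.0303 and an adjusted p of 0.485 by limma, so it did not pass. Within Exp1 the difference was 0.34 and within Exp2 it was 1.37. It was 0.44 ± 0.52 for H2A.Z.2 and 1.27 ± 0.52 for H2A.Z.1 (SE), and the difference between these of −0.84 ± 0.74 (SE) had an unadjusted p of 0.269 by limma. The average score of SPINK4 was at percentile 1.46 of the genes tested, near the bottom of all genes occupied in all 8 lists.

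The other 5 genes differed by less between the states. MUC5B averaged 0.14 ± 0.22 in postconfluent and −0.28 ± 0.43 in subconfluent lists (SD, n = 4 each), a difference of 0.43 ± 0.35 (SE) with an adjusted p of 0.753 by limma. Its difference was 0.62 within Exp1 and 0.23 within Exp2. The state differences of PYY, GFI1B, TFF2 and GFI1 were 0.20 ± 0.38, 0.19 ± 0.37, 0.11 ± 0.42 and −0.18 ± 0.38 (SE), with adjusted p-values of 0.915 to 0.963 by limma. For each of these 4 genes the sign differed between Exp1 and Exp2, for example −0.56 and 0.77 for TFF2.

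Between the isoforms the differences were smaller than their errors for all 6 genes. H2A.Z.2 minus H2A.Z.1 was 0.21 ± 0.38 for GFI1, 0.19 ± 0.42 for TFF2, −0.12 ± 0.37 for GFI1B, −0.19 ± 0.37 for SPINK4, −0.26 ± 0.38 for PYY and −0.33 ± 0.35 for MUC5B (SE). MUC5B averaged −0.23 ± 0.32 for H2A.Z.2 and 0.09 ± 0.42 for H2A.Z.1 (SD, n = 4 each). Run and isoform cannot be told apart in Exp1. Within Exp2, where the run name was shared, the differences were −0.20 for GFI1, 0.87 for TFF2, 0.49 for GFI1B, −0.55 for SPINK4, −0.40 for PYY and −0.53 for MUC5B, and those of GFI1, TFF2, GFI1B and SPINK4 had the opposite sign in Exp1. The errors over both experiments were as large as the differences or larger, so the test does not show that the isoforms are placed alike. PYY had the largest difference in state effect between isoforms, 0.99 ± 0.76 (SE), with an unadjusted p of 0.206 by limma.

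**Figure D5:**
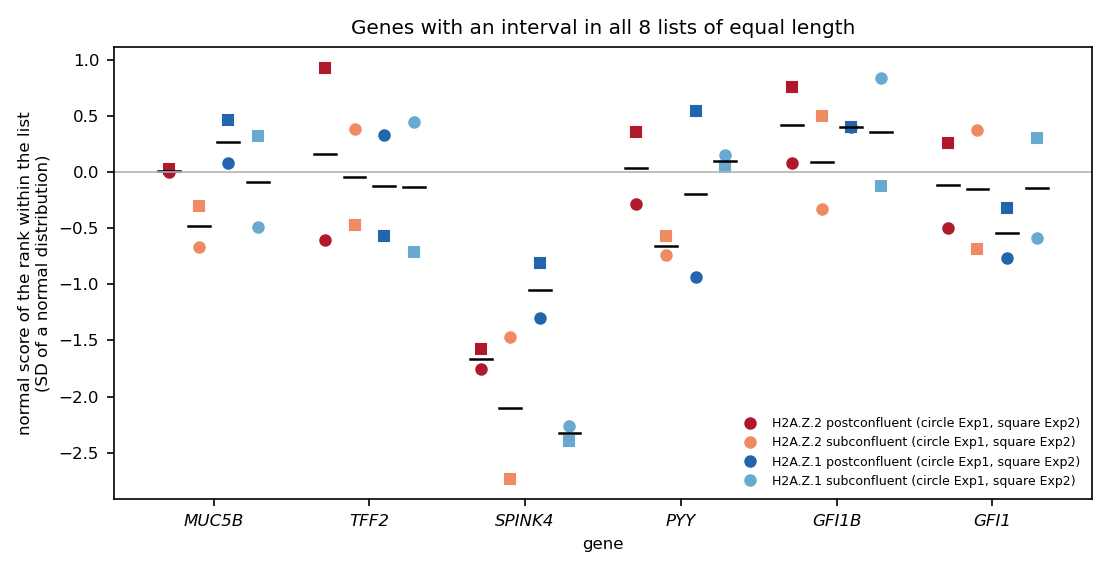
Normal score of the rank within the list for the 6 genes occupied in all 8 lists of equal length, by isoform and state; circles are Exp1, squares Exp2 and bars the mean of both. SPINK4 lies below the other 5 genes in every list, and its postconfluent lists average −1.36, against −2.21 in its subconfluent lists.

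The number of the 40 genes occupied per list did not separate the groups. It was 10 and 10 in postconfluent and 10 and 8 in subconfluent lists of H2A.Z.2, and 13 and 8 in postconfluent and 9 and 11 in subconfluent lists of H2A.Z.1. In whole lists it was 10 and 16, 14 and 8, 15 and 19, and 14 and 17 in the same order of groups, and it moved with list length: the longest list (79425 intervals) held the most and the shortest (30603) the fewest. The count of 6 genes occupied in all 8 lists depended on position and on length. It was 3 (MUC5B, SPINK4 and TFF2) where the summit had to lie within 1 kb of a gene end, and 3 (MUC5B, PYY and GFI1B) in lists of 15301 intervals each. Counting any interval, GFI1, GFI1B and PYY had a summit within 1 kb of an end in 2, 7 and 3 lists. For PYY these included the short interval at the outermost start.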

How the data were processed

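The data were 8 Flag ChIP-seq peak lists, 1 per sample and not pooled, read as single reads of 85 bp after 10 ng of spike-in chromatin was added, per the labels. BWA, deepTools and hg38 are named in the submitters' processing notes. The sources used here do not give the peak caller, its control or any use of the spike-in for scaling. The deposited score column is 10 times the −log10 q-value. The deposited fold enrichment is a ratio, the deposited −log10 p and −log10 q columns are on a −log10 scale, and the last deposited column counts the bp between interval start and summit. All are the authors' own values, used only to rank or filter within a list. Depth is unknown, so no counting interval is given.

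Autosomes and both sex chromosomes were used, with no merging within a list. Each list was limited to its 30603 intervals of highest −log10 p, of which the weakest had a −log10 p of 5.19 in H2A.Z.2 subconfluent Exp2, used whole, and of 9.99 to 16.8 in the other 7. An overlap of at least 1 bp with the 1 kb on either side of a gene end (RefSeq, GRCh38.p14) counted. Starts and strands came from the RefSeq promoter table where it has the gene. Normal scores were fitted as 4 group means with limma 3.58.1 (R 4.3.3), 2-sided. The code was tested on simulated data with known shifts.

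All 40 genes are accounted for. Those with an interval in any whole list are described with their values, the others by their nearest interval. The 40 genes and the other lists were chosen with earlier results of these data known. The labels number the samples by experiment (Exp1 and Exp2), which was taken as a pairing of the states within an isoform. Across isoforms the pairing is in doubt, since interval names give 3 run names, 1 for Exp2 and 1 for Exp1 of each isoform. A replicate block within each isoform was therefore added after seeing the data, for state only. Deviations of same-numbered lists correlated across genes between states (r = 0.158 for H2A.Z.2 and 0.207 for H2A.Z.1) and hardly between isoforms (−0.053 to 0.047). No source says that experiments were separate cultures, so p-values measure the spread between these samples, which may be technical. The alternatives were whole and shorter lists, a minimum −log10 q of 10, windows of 500 bp and 2 kb, an overlap of 100 bp, the summit's position, starts only, ranks by −log10 p, the replicate block, genes in any list, and leaving out each list in turn.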

Additional observations from a re-analysis of the deposited data

How the results depend on the processing

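Peak lists carry no depth, and 2 lists a group limit every contrast. The 12 state and isoform differences of the 6 genes gave 212 values over the 20 alternatives. None passed the adjusted threshold, 189 kept their direction and 23 reversed. Under ranks by −log10 p GFI1B reversed to −0.034 for postconfluent minus subconfluent and to 0.090 for H2A.Z.2 minus H2A.Z.1. With a window of 2 kb the state difference of GFI1 was −0.36 and its isoform difference 0.50, beside −0.18 and 0.21 as reported. With 1 list left out in turn, the state difference was −0.27 to 0.49 for TFF2, −0.17 to 0.57 for PYY, −0.052 to 0.43 for GFI1B and −0.44 to 0.081 for GFI1. The isoform difference was −0.19 to 0.57 for TFF2, −0.50 to 0.12 for SPINK4, −0.63 to 0.11 for PYY, −0.36 to 0.12 for GFI1B and −0.054 to 0.47 for GFI1. The state difference of SPINK4 was 0.39 to 1.15 and that of MUC5B 0.22 to 0.63 over all alternatives, with no reversal.

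The number of the 40 genes occupied in all 8 lists was 6 and became 3 in lists of 15301 intervals and 3 with the summit in the window. It stayed at 6 with any list left out. The number occupied in none was 25 and became 16 where only starts of transcription counted, which leaves 25 genes with a known start. It was 25 to 27 with a list left out. The 6 genes called for state over both isoforms became 13 in whole lists, 0 in lists of 15301 intervals, 3 with an overlap of 100 bp, 3 with the summit in the window, 44 with ranks by −log10 p, 14 with the replicate block, 20 with a replicate block within each isoform, 2 with genes present in at least 1 list and 0 to 12 with a list left out. State within H2A.Z.2, 0 as reported, called 1 gene with a window of 500 bp, 1 with the replicate block and 0 to 1 with a list left out. State within H2A.Z.1, 0 as reported, called 3 with a window of 2 kb, 2 with the summit in the window, 2 with starts only, 2 with ranks by −log10 p, 2 with the replicate block, 3 with a replicate block within each isoform and 0 to 2 with a list left out. Isoform in postconfluent cells, 0 as reported, called 2 with a window of 500 bp and 1 with the summit in the window. None of the other calls moved with the replicate block. The causes were not tested.

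The genes of the 40 occupied in postconfluent lists only within H2A.Z.2, 1 as reported (SYP), became 0 in whole lists, 0 in lists of 15301 intervals, 2 with the summit in the window and 1 to 2 with a list left out. The other pairs of groups had 0 as reported. Whole lists gave 2 for postconfluent only within H2A.Z.1, 1 for subconfluent only within H2A.Z.1 and 1 for H2A.Z.1 only in postconfluent cells, which a minimum −log10 q of 10 made 2. A window of 2 kb gave 1 for postconfluent only within H2A.Z.1, and an overlap of 100 bp gave 1 for H2A.Z.2 only in subconfluent cells. With a list left out, the counts were 0 to 2 for postconfluent only within H2A.Z.1, for H2A.Z.2 only and H2A.Z.1 only in postconfluent cells and for H2A.Z.1 only in subconfluent cells. They were 0 to 1 for subconfluent only within H2A.Z.1, for subconfluent only within H2A.Z.2 and for H2A.Z.2 only in subconfluent cells. The shares of all genes beside the counts with a list left out are not given here. The comparison of promoter base composition over the 40 genes was not run, since it is void.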
